A study of Mus musculus with 3 samples.

Results

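The mRNA profile of mouse liver after 90 min of warm ischemia (WI) was compared with that of sham-operated liver, to describe which genes differ when the liver has lost its blood flow and has not yet been reperfused. The comparison covers the 10218 autosomal genes with an FPKM (read pairs per transcript length, scaled to the mapped reads of a library) of at least 1 in one or both of the libraries, out of 22292 autosomal genes and 23361 genes listed in all. Each group has 1 RNA-seq library. The mice were C57BL/6J, labelled male, 8 to 10 weeks old, and all had been fasted for 12 h, anesthetized with chloral hydrate and opened by a midline laparotomy. In the WI group, a clamp closed the hepatic artery, portal vein and bile duct of the left and median lobes for 90 min, and the liver was taken without reperfusion. The sham group had no clamp, and its mice stayed in cages over the same 90 min before the liver was taken. Whether anesthesia lasted as long in both groups is not stated, so its part cannot be told apart from that of the clamp. The study assigned 6 mice to each group, and it is not stated whether a library holds the RNA of 1 mouse or of several, nor from which lobe the tissue came. A further library, from liver reperfused for 2 h after the clamp (IR), is quoted for a few genes only.

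Both libraries went against their label in the same way. Xist, the RNA that coats the inactive X chromosome of female cells, had an FPKM of 18.9 in sham (95% bounds 7.80 to 29.9) and 20.1 in WI (8.52 to 31.8). Of 4 genes of the Y chromosome, Eif2s3y, Kdm5d and Uty were listed at 0 in both libraries, and Ddx3y was listed at 0 in sham and at 0.00849 in WI. In the IR library Xist was at 1.29 and Eif2s3y at 13.2. The libraries compared here therefore carry the same sex markers, and genes on the X and Y chromosomes were left out. Hepatocyte genes held the highest levels. Apoe had an FPKM of 11465 in sham and 12460 in WI, and Apoa2 had 11170 and 12573, but their lower bound was 0 in one or both libraries. Alb, the albumin gene, was listed at 0 in both with the status HIDATA, which Cufflinks gives to a locus with too many fragments to process.

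Liver meets fasting by releasing glucose and burning fatty acids, a program driven by glucocorticoids, glucagon and the fatty acid receptor PPARA. In the fed state insulin and the SREBP transcription factors favor the making of cholesterol and fatty acids instead. Ischemia cuts off oxygen, nutrients and circulating hormones together, and the sinusoids of the organ also house macrophages (Kupffer cells) and a specialized endothelium.

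Changes are given as log2(FPKM + 1) in WI minus sham, a scale that understates the change of genes with low FPKM. A gene was counted as 2-fold higher or lower where FPKM + 1 differed at least 2-fold. Of the 10218 genes, 79 were 2-fold higher in WI (0.773%) and 116 were 2-fold lower (1.14%). A stricter description uses the deposited 95% bounds, which come from the software's model and do not measure the variation between mice of a group. The bounds did not overlap for 20 genes higher in WI (0.196%) and for 51 genes lower in WI (0.499%). Of these 71 genes, 66 were also 2-fold apart. The bounds reached a median of 51.6% of the FPKM to either side in sham and 51.8% in WI, so the smallest FPKM ratio with bounds apart was 2.80. The median change of all genes was 0.02, and the middle 90% of genes lay between -0.54 and 0.50. With a single library per group, no difference described here has a replicate check in these libraries, and no p-value was computed. The study also reports qPCR of selected genes, with primers for Fos, Lpin1, Tgtp1 and Myd88, which was not re-analysed here. Just inside the 2-fold limit lay Fam20c (1.01) and Ifrd1 (-1.001), and just outside it lay 8430408G22Rik (0.998) and E2f8 (-0.9996).

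**Figure D1:**
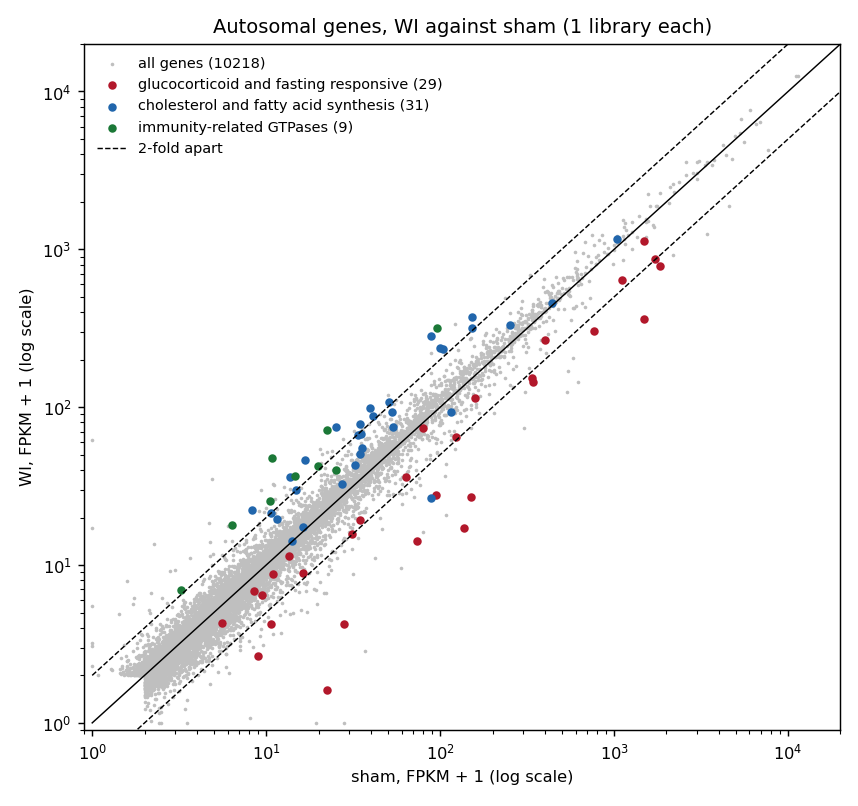
FPKM + 1 in the WI library (vertical, log scale) against FPKM + 1 in the sham library (horizontal, log scale) for 10218 genes, with the line of equality and dashed lines 2-fold to either side. The 29 glucocorticoid and fasting responsive genes lie below the line, 29 of 31 cholesterol and fatty acid synthesis genes lie above it, and the 9 immunity-related GTPase genes lie above it.

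Lists of genes by function were set against these backgrounds, 37 of them for pathways and 9 for the markers of cell types. The list with the lowest median among pathways was that of glucocorticoid and fasting responsive genes, and the lists with the highest medians were the immunity-related GTPases (IRGs) and the genes of cholesterol and fatty acid synthesis. Of the 195 genes that were 2-fold apart, 40 of the 79 higher and 39 of the 116 lower were members of a pathway list, as were 839 of all 10218 genes, and the lists were chosen with results of these data known.

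**Figure D2:**
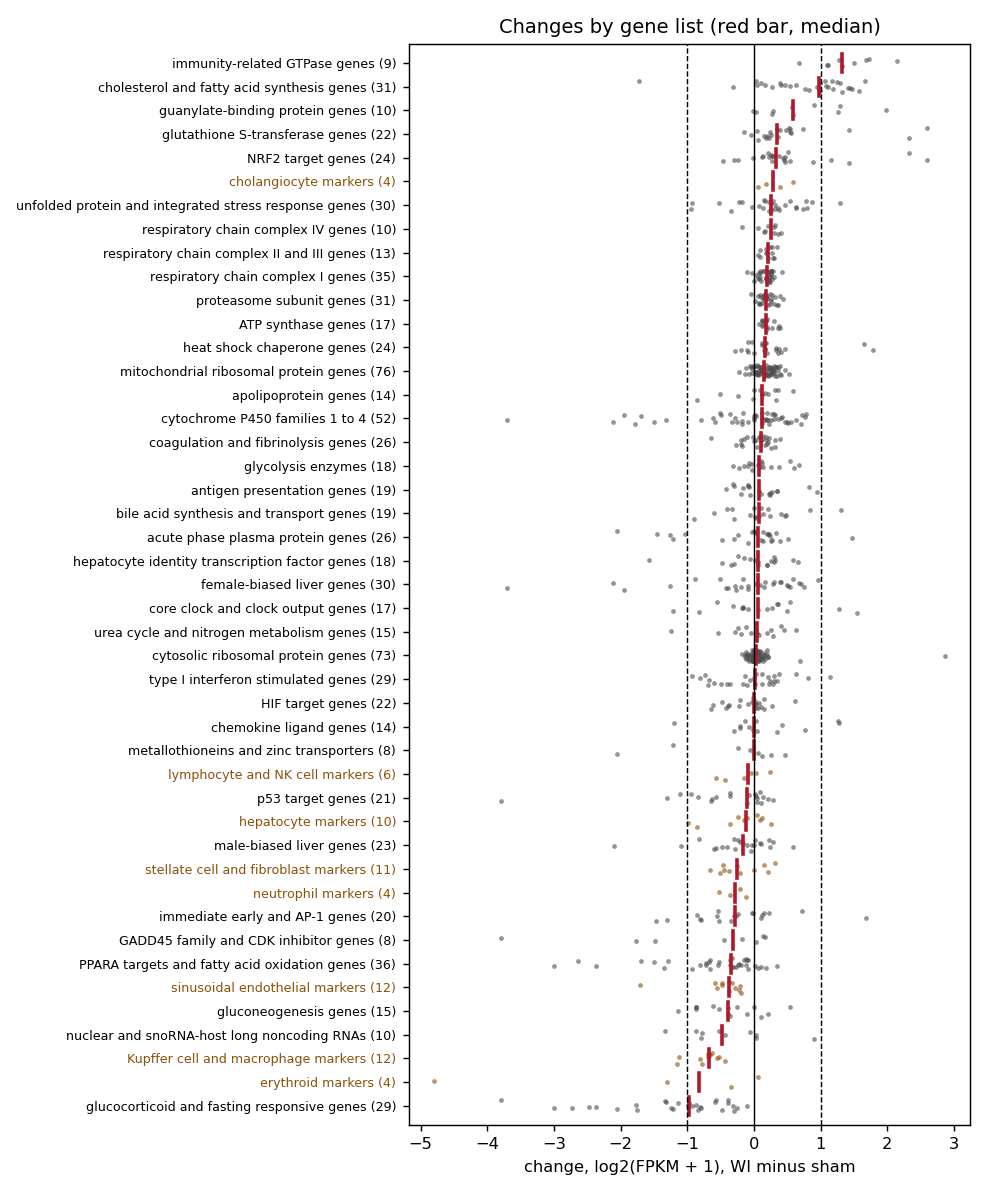
Change in log2(FPKM + 1), WI minus sham, of each member (points) of every list with at least 4 members past the FPKM minimum, ordered by the median (red bar), with marker lists of cell types in brown, dashed lines at 2-fold and the number of members in parentheses. The medians run from -0.97 for the glucocorticoid and fasting responsive genes to 1.32 for the immunity-related GTPases.

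The listed autosomal genes that glucocorticoids or fasting are known to induce in liver were lower in WI. The list was chosen with results of these data known, and its X-linked gene, Tsc22d3, was left out. All 29 autosomal genes of the list passed the FPKM minimum, all 29 were lower, 13 were 2-fold lower (44.8%, against 1.14% of all genes), and the bounds were apart for 8 (against 0.499%). Their median change was -0.97. Cdkn1a, a cyclin-dependent kinase inhibitor that is induced by fasting as well as by p53 (chromosome 17 of mm10, 29090986 to 29100722), had an FPKM of 21.5 in sham (11.4 to 31.6) and 0.619 in WI (0.161 to 1.08), a change of -3.80. It had the lowest change of all genes whose bounds were apart, with an FPKM 34.7 times lower. Pdk4, the kinase that shuts pyruvate dehydrogenase during fasting, went from 135 (59.2 to 212) to 16.1 (8.62 to 23.5), a change of -3. Ddit4, an inhibitor of mTORC1 that glucocorticoids induce, went from 26.9 (14.4 to 39.3) to 3.22 (1.34 to 5.09), and Lpin1, a phosphatidate phosphatase that also acts as a transcriptional coactivator of fatty acid oxidation, from 149 (51.8 to 247) to 26.1 (12.8 to 39.4). In each of these 4 genes the highest bound in WI lay below the lowest bound in sham.

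The classical glucocorticoid receptor targets of the list followed the same direction. Fkbp5, a chaperone that dampens the receptor itself, had an FPKM of 72.4 in sham (34.0 to 110.7) and 13.2 in WI (7.09 to 19.3), a change of -2.37. Zbtb16, a transcription factor, went from 7.93 (4.26 to 11.6) to 1.64 (0.770 to 2.52), a change of -1.76. The metallothionein Mt2, a zinc-binding protein that glucocorticoids induce, went from 1493 (637 to 2349) to 359 (186 to 533), a change of -2.05, and its neighbor Mt1 from 1829 to 788, a change of -1.21 with overlapping bounds. The other 6 genes of the metallothionein and zinc transporter list that passed were within 2-fold. Gadd45g, a stress-inducible gene, went from 93.6 (49.4 to 138) to 26.9 (14.3 to 39.5), a change of -1.76. Not every receptor target moved so far. Tat, tyrosine aminotransferase, had a change of -0.99 with wide bounds, Per1 one of -0.32, and Klf15 one of -0.11, the smallest of the list.

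**Figure D3:**
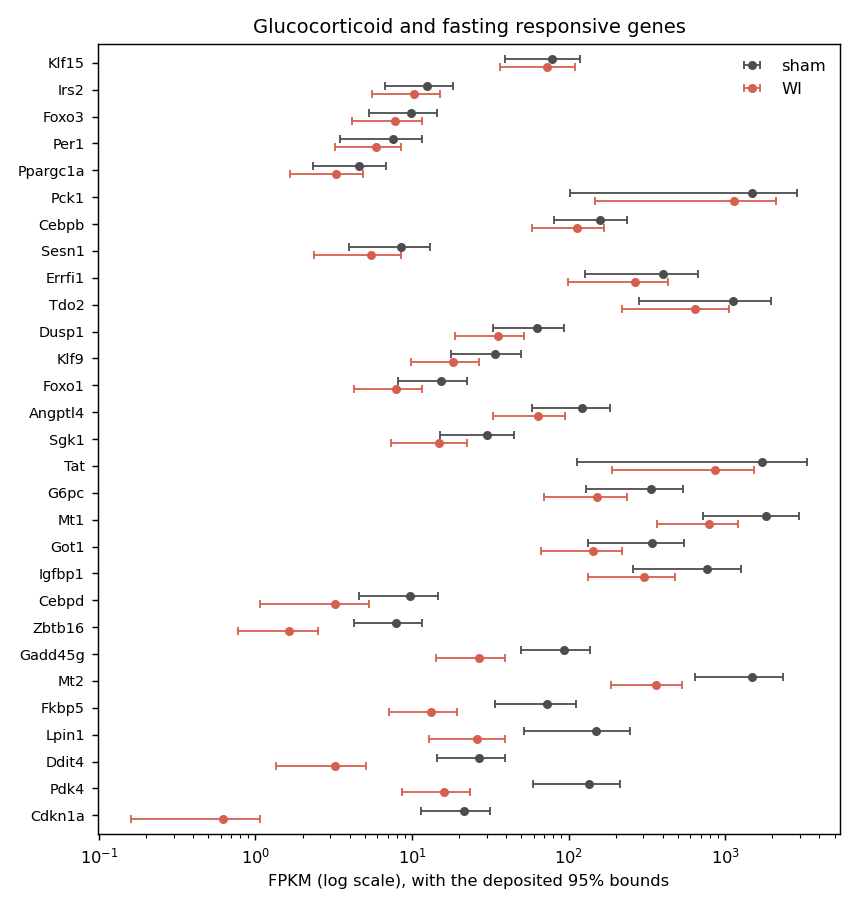
FPKM (log scale) of the 29 glucocorticoid and fasting responsive genes in the sham and WI libraries, 1 library each, with bars for the deposited 95% bounds, ordered by change. The WI value lies left of the sham value in every gene, and the bars are apart for 8 of them, such as Cdkn1a, Pdk4 and Ddit4.

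Enzymes of glucose release were lower to a smaller degree. Of 15 gluconeogenesis genes, 11 were lower. Only G6pc, the catalytic subunit of glucose-6-phosphatase, was 2-fold lower (6.67%, against 1.14% of all genes). Its FPKM was 335 in sham (130 to 541) and 152 in WI (69.9 to 234), a change of -1.13 with overlapping bounds. Pck1, the rate-limiting step of the pathway, had 1483 in sham and 1132 in WI, a change of -0.39. Igfbp1, a secreted binding protein of insulin-like growth factors that insulin represses, went from 761 to 305, a change of -1.32, again with overlapping bounds. Of 18 glycolysis enzymes 0 were 2-fold apart, where 1.91% of all genes were, the largest change being 0.68 for Pklr, the liver pyruvate kinase. Gapdh, which is often used as a reference gene, had an FPKM of 850.2 in sham and 1231 in WI, a change of 0.53.

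Most targets of PPARA were lower in WI, and the enzymes of beta-oxidation were within 2-fold. All 36 genes of the list passed, 31 were lower, 7 were 2-fold lower (19.4%, against 1.14%), and the median was -0.34. The lowest was Pdk4, given above, which the fasting list also holds. Plin5, which coats lipid droplets next to mitochondria (chromosome 17, 56111601 to 56117548), had an FPKM of 58.6 in sham (27.3 to 89.9) and 8.53 in WI (4.35 to 12.7), a change of -2.64. Acot1, a cytosolic thioesterase that frees fatty acids from coenzyme A, went from 107 (54.5 to 160) to 19.9 (10.6 to 29.2), a change of -2.37. Both had bounds apart, as did Cidec, another lipid droplet protein, which went from 2.52 to 0.388. The fatty acid hydroxylases Cyp4a10 and Cyp4a14 went from 544 to 168 and from 578 to 205, with overlapping bounds, and all 4 Cyp4a genes that passed were lower, 3 of them 2-fold. Of 18 beta-oxidation enzymes, 16 were lower and 0 were 2-fold lower, where 1.14% of all genes were, and the median was -0.29. Ppara itself was at 41.2 in sham and 43.2 in WI, and Plin2, the most abundant lipid droplet coat of this list, was at 168 and 157.

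Genes of cholesterol and fatty acid synthesis were higher in WI. Of 31 genes that passed, 29 were higher, 13 were 2-fold higher (41.9%, against 0.773% of all genes), and the median was 0.98. The bounds were apart for only 1 of the higher genes, Lss, and overlapped for the other 12 of the 13. The 14 enzymes of the cholesterol branch were all higher, 8 of them 2-fold, with a median of 1.07. Hmgcs1, which makes HMG-CoA in the cytosol (chromosome 13, 119690462 to 119708077), had an FPKM of 87.7 in sham (41.2 to 134) and 281 in WI (102 to 460), a change of 1.67. Lss, the cyclase that forms the sterol ring, went from 15.7 (8.40 to 22.96) to 45.3 (23.04 to 67.5), a change of 1.47. Of 10 fatty acid synthesis genes 9 were higher, 3 of them 2-fold, with a median of 0.51. Fasn, fatty acid synthase, went from 24.3 (11.5 to 37.0) to 74.3 (27.6 to 121), a change of 1.58. Scd1, the main desaturase of liver, had a change of 0.16 with bounds that span most of its range.

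The regulators of these enzymes did not all move together. Srebf1, the SREBP gene that drives fatty acid synthesis, went from 33.7 to 77.7, a change of 1.18, while Srebf2, which drives cholesterol synthesis, was at 13.04 and 13.3. INSIG proteins hold SREBPs in the endoplasmic reticulum, and their 2 genes went in opposite directions. Insig1, itself an SREBP target, was higher, at 103 in sham and 233 in WI. Insig2, which in liver is high in fasting, was lower, at 87.1 (40.3 to 134) and 25.6 (13.2 to 38.02), a change of -1.73 with bounds apart, the only 2-fold lower member of the list.

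**Figure D4:**
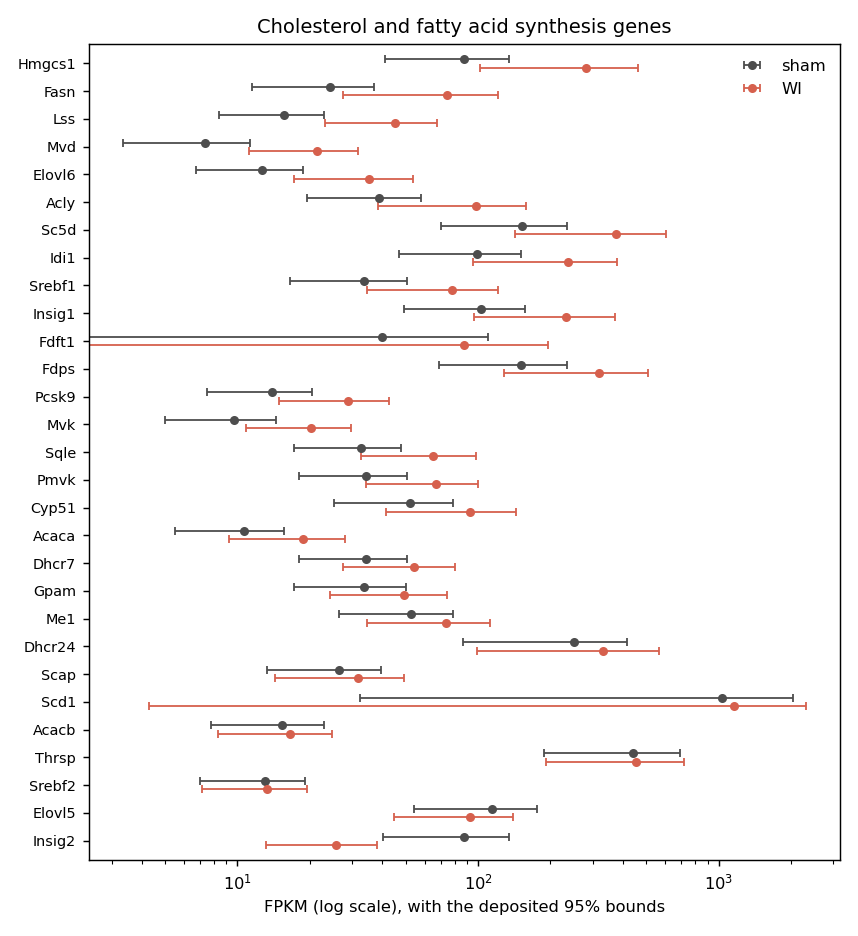
FPKM (log scale) of 29 of the 31 cholesterol and fatty acid synthesis genes in the sham and WI libraries, 1 library each, with bars for the deposited 95% bounds, ordered by change. The WI value lies right of the sham value in 27 of the genes drawn, most bars overlap, and those of Fdft1, whose lower bounds are 0, run off the left edge.

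The upstream sequence of Hmgcs1 is shown because it was the only one of 23 promoters of this list with an exact match to a short form of the sterol regulatory element, TCACNCCAC, searched on both strands over the 250 bases before the start. The same letters were found in 1.04% of 27025 RefSeq promoters. Capitals mark the match, and the stretch lies on the plus strand of GRCm38.p6 at chr13:119690199-119690237.
Hmgcs1: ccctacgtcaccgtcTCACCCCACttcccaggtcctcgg

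The largest share of 2-fold higher members was among the interferon-inducible IRGs, GTPases that attack the vacuoles of intracellular parasites. Of 9 genes that passed, 9 were higher, 8 were 2-fold higher (88.9%, against 0.773%), the bounds were apart for 2 (against 0.196%), and the median was 1.32. Tgtp1 (chromosome 11, 48985329 to 48992246) had an FPKM of 9.79 in sham (5.22 to 14.4) and 46.7 in WI (24.0 to 69.3), a change of 2.14. Igtp went from 21.5 (11.5 to 31.4) to 71.2 (35.9 to 106), a change of 1.68. Iigp1, the most abundant IRG, went from 95.3 (43.9 to 147) to 318 (112 to 525), a change of 1.73 with overlapping bounds. Tgtp2 and Ifi47 are listed at a shared locus, so their reads may not be told apart, and Tgtp1 and Tgtp2 are near-identical copies. Gm4951, the one member within 2-fold, was at 24.1 and 39.2.

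Other interferon-gamma inducible GTPases lay in the same direction. Of 10 guanylate-binding protein genes 9 were higher and 3 were 2-fold higher (30.0%, against 0.773% of all genes). The median of the list was 0.58, or 1.26 over the 5 with an FPKM of at least 5 in one library. Gbp10 went from 3.68 (1.86 to 5.50) to 17.4 (9.27 to 25.4), a change of 1.97 with bounds apart. Gbp6 and Gbp7 had changes of 1.29 and 1.26 with overlapping bounds, and Gbp8 was at 1.95 and 1.92. Gvin1, a very large interferon-inducible GTPase, went from 1.80 (0.411 to 3.19) to 8.17 (4.98 to 11.4), a change of 1.71. Gm4841, another IRG-like gene, went from 0.709 (0.237 to 1.18) to 4.68 (2.35 to 7.01).

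**Figure D5:**
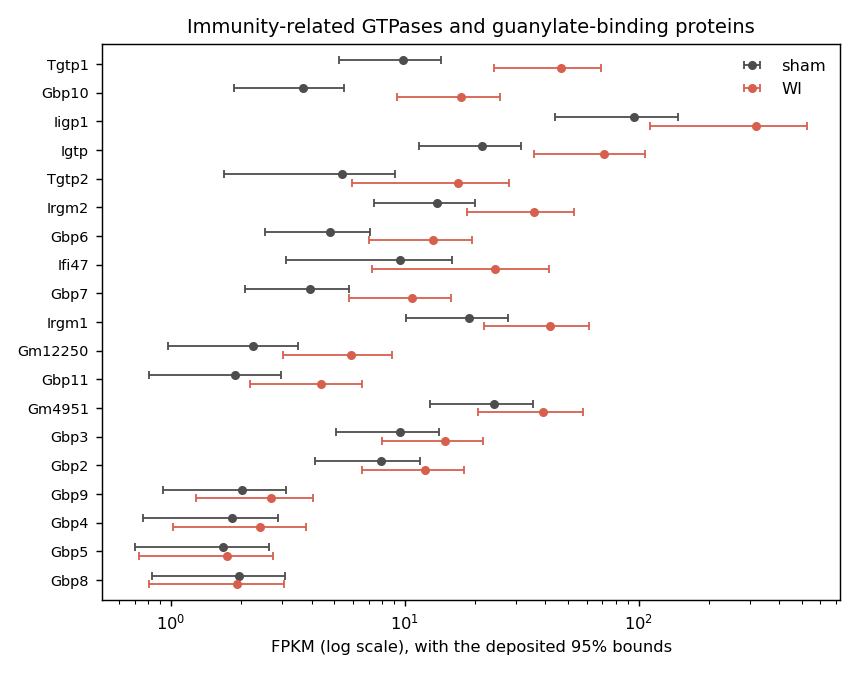
FPKM (log scale) of the 9 immunity-related GTPase and 10 guanylate-binding protein genes in the sham and WI libraries, 1 library each, with bars for the deposited 95% bounds, ordered by change. The bars are apart for Tgtp1, Gbp10 and Igtp, and Gbp8, at the bottom, is the one gene whose WI value is not right of its sham value.

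Genes known mainly as targets of type I interferon did not share this shift. Of 29 that passed, 15 were higher and 14 lower, and the median was 0.01, a sign that turned when the libraries were rescaled. Of 19 antigen presentation genes 10 were higher and 0 were 2-fold apart, where 1.91% of all genes were. The largest changes there were those of Psmb10 (0.94) and Psmb9 (0.83), subunits of the immunoproteasome. Differences between these lists were described by their counts and were not tested.

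Promoters of the GTPases are printed because 6 of the 7 IRG promoters in the RefSeq table held the letters GAAANNGAA, a core of the interferon-stimulated response element, and 5 held TTCNNNGAA, the core of the gamma-activated sequence. All 4 guanylate-binding protein promoters in the table held the first and 2 held the second. Over all 27025 promoters the shares were 7.16% and 7.18%, counted on both strands over the 250 bases before the start. The pairing of lists and motifs was chosen with results of these data known. Capitals mark the matches, which are letters and not shown binding sites. The stretches are from GRCm38.p6, Tgtp1 on the minus strand at chr11:48992300-48992349, Igtp on the plus strand at chr11:58199496-58199545, Irgm2 on the plus strand at chr11:58214887-58214936, and Gbp7 on the plus strand at chr3:142530215-142530307.
Tgtp1: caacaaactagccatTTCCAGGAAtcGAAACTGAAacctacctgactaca
Igtp: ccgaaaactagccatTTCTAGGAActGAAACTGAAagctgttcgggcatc
Irgm2: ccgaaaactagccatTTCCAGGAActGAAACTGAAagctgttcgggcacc
Gbp7: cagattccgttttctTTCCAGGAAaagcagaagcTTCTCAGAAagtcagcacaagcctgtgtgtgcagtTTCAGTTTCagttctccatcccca

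In Tgtp1, Igtp and Irgm2, whose FPKM was 4.77, 3.32 and 2.60 times higher in WI, both sets of letters stand side by side in the same order. The stretches of these genes also share most letters before and between the matches, so their matches may not be independent of each other. In Gbp7, whose FPKM was 2.74 times higher, the interferon-stimulated letters are read on the other strand.

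Glutathione S-transferases, which conjugate reactive compounds to glutathione, were higher on the whole. Of 22 that passed 20 were higher, 3 were 2-fold higher (13.6%, against 0.773% of all genes), and the median was 0.35. The 3 were neighbors in the alpha cluster of chromosome 9. Gsta1 (78230669 to 78242683) went from 1.25 (0.318 to 2.19) to 12.6 (6.07 to 19.2), a change of 2.60, Gm3776 from 0.580 (0.0845 to 1.08) to 6.90 (2.97 to 10.8), and Gsta2 from 19.5 (9.97 to 28.9) to 53.6 (28.8 to 78.5) with overlapping bounds. These genes are similar in sequence, and the counting could have split reads between them. Of 24 targets of the oxidative stress factor NRF2 that passed, 20 were higher and 4 were 2-fold higher (16.7%, against 0.773%). These 4 were the same 3 Gsta genes and Osgin1, at 30.9 and 69.8. Hmox1, heme oxygenase 1, was at 22.6 and 18.1.

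Cytochrome P450 genes were 2-fold apart in one direction only, lower in WI. Of 52 genes of families 1 to 4 that passed, 31 were higher, 0 were 2-fold higher and 7 were 2-fold lower (13.5%, against 1.14%). Cyp3a16, a female-predominant P450, went from 36.1 (19.3 to 52.9) to 1.84 (0.672 to 3.01), a change of -3.71. Cyp3a41a went from 623 (349 to 897) to 143 (92.1 to 193), a change of -2.12, and Cyp3a44 from 41.3 (21.9 to 60.8) to 10.0 (5.21 to 14.8), a change of -1.94. Cyp2b10, the classical target of the xenobiotic receptor CAR, went from 18.6 (9.98 to 27.2) to 4.67 (2.19 to 7.15). The bounds were apart for these 4, and the 3 Cyp3a genes lie in 1 cluster of similar sequences on chromosome 5. The female-biased list as a whole did not follow them, with 16 of 30 genes higher. In that list 4 genes were 2-fold lower (13.3%, against 1.14%), the 3 Cyp3a genes and the sulfotransferase Sult3a1. Of 23 male-biased genes that passed, 15 were lower and 2 were 2-fold lower (8.70%, against 1.14%), Serpina1e (538 to 124, -2.10, bounds apart) and Elovl3 (3.91 to 1.31).

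Immediate early genes, the first to be transcribed after a stimulus, went both ways. Of 20 that passed 14 were lower, with a median of -0.29. Fos, a subunit of the AP-1 factor, was higher, from 8.31 (4.28 to 12.3) to 28.9 (15.5 to 42.4), a change of 1.69 with bounds apart. Myc, a growth regulator, was lower, from 7.42 (3.42 to 11.4) to 2.03 (0.620 to 3.45), and Btg2, an antiproliferative p53 target, from 59.4 to 23.5, both with overlapping bounds. Jun, the partner of Fos, had a change of -0.86 and Junb one of 0.71. Of 21 p53 targets 12 were lower, and 3 were 2-fold lower (14.3%, against 1.14% of all genes), Cdkn1a, Btg2 and Plk3. Gadd45b, a sensor of stress, went from 12.6 (6.39 to 18.9) to 3.90 (1.59 to 6.204), a change of -1.48 with bounds apart.

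Clock genes had a median near 0, a sign that turned when FPKM was rescaled to a common sum. Of 17 members 2 were 2-fold higher (11.8%, against 0.773% of all genes) and 1 was 2-fold lower (5.88%, against 1.14%). Nr1d1, the repressor REV-ERB alpha, went from 5.06 (2.52 to 7.61) to 16.7 (8.98 to 24.5), a change of 1.55 with bounds apart. Dbp, an output factor of the clock, went from 20.0 to 49.7, and Nfil3, which competes with it for the same sites, from 14.5 to 5.70. The hour of tissue collection is not stated, so a difference in time of day cannot be told apart from ischemia.

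Genes of hypoxia and protein stress were mostly within 2-fold. Of 22 targets of the hypoxia-inducible factors (HIF) that passed, 11 were higher, 11 lower and 0 2-fold apart, where 1.91% of all genes were. The largest changes were -0.65 for Ndrg1 and -0.62 for Bnip3, a mitophagy receptor that was at 235 in sham and 153 in WI. Of 24 heat shock chaperones 17 were higher and 2 were 2-fold higher (8.33%, against 0.773% of all genes). Hspa1a and Hspa1b, the inducible HSP70 pair, which share nearly all of their sequence, went from 0.425 (0.113 to 0.736) to 3.89 (1.90 to 5.88) and from 1.99 (0.837 to 3.15) to 8.36 (4.42 to 12.3). The same genes were at 206 and 442 in the IR library. Of 30 genes of the unfolded protein and integrated stress responses 23 were higher, with a median of 0.25. Only Sdf2l1, a chaperone cofactor of the endoplasmic reticulum, was 2-fold higher (3.33%, against 0.773%), at 9.36 and 24.4.

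Plasma proteins and the genes of hepatocyte identity were mostly within 2-fold, but the acute phase list held more 2-fold lower genes than the background share. Of 26 acute phase genes 1 was 2-fold higher (3.85%, against 0.773% of all genes). Lower by 2-fold were 5 (19.2%, against 1.14%), among them Mt1 and Mt2, given above. Lcn2, which binds bacterial siderophores, went from 121 (63.3 to 178) to 335 (158 to 512), a change of 1.47, while the serum amyloid genes Saa1 and Saa2 went from 3414 to 1248 and from 2187 to 915, and the bounds overlapped for each. Of 14 chemokine ligands that passed, Cxcl1 (8.13 to 21.1) and Cxcl10 (3.76 to 10.4) were 2-fold higher and Ccl6 (24.6 to 10.1) was 2-fold lower. The shares were 14.3% higher and 7.14% lower, against 0.773% and 1.14% of all genes. Among 18 transcription factors of hepatocyte identity, Onecut1, also named HNF6, was the only one 2-fold apart (5.56% lower, against 1.14% of all genes). It was at 9.88 (5.08 to 14.7) and 2.64 (1.09 to 4.19), a change of -1.58 with bounds apart. Hnf4a was at 144 and 122. Got1, the cytosolic aspartate aminotransferase, was the only 2-fold member of 15 urea cycle and nitrogen genes (6.67%, against 1.14%), with a change of -1.25. In the bile acid list of 19 genes the only 2-fold member was Nr0b2, the repressor SHP (5.26%, against 0.773%). It went from 11.6 (5.75 to 17.5) to 30.0 (16.1 to 44.0), a change of 1.30 with overlapping bounds. Cyp7a1, the rate-limiting enzyme of bile acid synthesis, was at 73.0 and 80.1. Of 14 apolipoprotein genes and 26 coagulation genes, 0 were 2-fold apart, where 1.91% of all genes were.

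Genes of mitochondria and of protein turnover were shifted slightly and evenly. Of 35 complex I genes 32 were higher (median 0.19), of 13 complex II and III genes 13 (0.21), of 10 complex IV genes 9 (0.25), and of 17 ATP synthase genes 17 (0.19). Mitochondrial ribosomal proteins were higher in 66 of 76 (0.15) and proteasome subunits in 30 of 31 (0.19). In all 6 lists 0 members were 2-fold apart, where 1.91% of all genes were. Of all genes, 52.8% were higher. The bounds of every member overlapped, as those of Ndufv3, which had the largest change among complex I genes, at 70.9 (31.6 to 110.2) and 95.5 (44.1 to 147). Rescaling to a common sum or by the median ratio lowered the medians of these 6 lists, which stayed above 0. That of complex I went to 0.16 and 0.17. All but that of complex IV moved by more than the standard error over members. Cytosolic ribosomal proteins had a median of 0.02, whose sign turned under both rescalings. Their only 2-fold member, Rps27 (1.37%, against 0.773% of all genes), had lower bounds of 0.

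Several of the largest differences belonged to no list. Serpina4-ps1, a serpin pseudogene, went from 7.04 (3.36 to 10.7) to 0.0753 (0 to 0.170), a change of -2.90. Eif4ebp3, which represses cap-dependent translation, went from 78.9 (41.7 to 116) to 15.2 (7.81 to 22.6), a change of -2.30. On the higher side, Slc51b, the beta subunit of the bile acid exporter OST, went from 0.733 (0 to 1.47) to 5.18 (1.68 to 8.68), a change of 1.83, and Slc41a2, a magnesium transporter, from 1.19 (0.495 to 1.89) to 5.67 (2.99 to 8.34). Bcl6, a transcriptional repressor that opposes PPARA in liver, was chosen after its values were seen, and went from 1.52 (0.633 to 2.41) to 5.196 (2.68 to 7.72), a change of 1.30 with bounds apart.

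Markers of Kupffer cells and of the sinusoidal endothelium were lower throughout their lists. All 12 Kupffer cell and macrophage markers were lower, 2 of them 2-fold (16.7%, against 1.14% of all genes), with a median of -0.68. The FPKM of the list, summed here and below over all autosomal genes of a list, was 977 in sham and 577 in WI. Cd5l, a secreted macrophage protein, went from 203 (88.2 to 317) to 90.4 (44.7 to 136), and Emr1, which encodes F4/80, from 22.5 (11.9 to 33.0) to 9.74 (5.22 to 14.3), both with overlapping bounds. Clec4f, a lectin of Kupffer cells, was at 115 and 65.3. Of other macrophage genes, chosen after their values were seen, the bounds were apart for the scavenger receptor Cd163 (16.2 to 4.02, a change of -1.78), the sialoadhesin Siglec1 (7.001 to 2.30, -1.28) and the cytokine Il10 (1.41 to 0.148, -1.07). All 12 endothelial markers were lower, with a median of -0.37 and a sum of 223 and 169. Lyve1, a hyaluronan receptor of sinusoidal endothelium, went from 11.2 (5.97 to 16.3) to 2.73 (1.25 to 4.21), a change of -1.71 with bounds apart, while Stab2 (8.05 and 5.47) and Clec4g (70.7 and 55.9) were within 2-fold. Vcam1, an adhesion molecule also chosen after its values were seen, went from 30.5 (15.9 to 45.1) to 7.76 (4.13 to 11.4).

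Of the other marker lists, those of stellate cells and blood cells were lower in sum and that of cholangiocytes was higher. Of 11 stellate cell and fibroblast markers 7 were lower (sum 173 and 124), and of 9 neutrophil markers, which summed to 26.0 and 19.6, the 4 that passed were lower. Lymphocyte markers summed to 16.9 and 14.6, and cholangiocyte markers to 55.0 and 63.1. Erythroid genes summed to 744 and 511, with Hba-a2 at 305 and 123. Hbb-b2 was at 26.8 and 0.00424 with lower bounds of 0 in both. Krt18 was the only mesothelial marker that passed, and hepatocytes also express it. Hepatocyte markers, without Alb, summed to 27476 and 21945. This sum includes Apoa1, at 7630 in sham (0 to 15988) and 4239 in WI (300 to 8179). Of the 10 hepatocyte markers that passed, 4 were higher and 6 lower, with a median of -0.13. Of these 10, 0 were 2-fold apart, where 1.91% of all genes were. In whole liver, fewer cells of a type and less RNA per cell cannot be told apart. How far the lower macrophage and endothelial markers bear on the other gene lists was not tested.

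Among noncoding RNAs, 7 of 10 nuclear or snoRNA-host transcripts that passed were lower. Snhg3 was the only one 2-fold lower (10.0%, against 1.14% of all genes), at 22.6 (9.47 to 35.7) and 8.32 (2.67 to 14.0). Neat1, the scaffold of paraspeckles, was at 6.64 and 13.3, and Malat1 at 7.78 and 7.44. Values of small RNA genes rested on bounds that reach 0. Of 10 that passed, 7 were 2-fold apart (against 1.91% of all genes), and all 7 had lower bounds of 0 in both libraries. Snora34 was listed at 0 in sham and 61.1 in WI, Mir546 at 0 and 16.2, and Snora7a at 18.4 and 0, so no fold was computed for them.

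The levels of some named genes after reperfusion are given side by side with no comparison, because the IR library carried other sex markers and its mice were sampled later. Cdkn1a had an FPKM of 21.5, 0.619 and 47.5 in sham, WI and IR, and Pdk4 had 135, 16.1 and 79.8. Gadd45g had 93.6, 26.9 and 247, and Mt2 had 1493, 359 and 4713. Tgtp1 had 9.79, 46.7 and 6.08, Gbp10 had 3.68, 17.4 and 4.71, and Hmgcs1 had 87.7, 281 and 179. Lpin1 had 149, 26.1 and 23.6, Nr1d1 had 5.06, 16.7 and 47.0, and Lyve1 had 11.2, 2.73 and 33.4. Myd88, the adaptor of Toll-like receptors, had 7.48, 6.40 and 22.8.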

How the data were processed

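RNA-seq of 1 sham and 1 WI library of mouse liver was analysed. The authors mapped reads to mm10 with TopHat2 2.0.9, per the study's methods, and deposited FPKM values with lower and upper bounds and a status per gene. The submitters' processing notes name Cufflinks 2.0.2, and the study's methods name Cuffdiff of the same version for its comparisons. The columns carry the group's name, as in Cuffdiff output, and the bounds are taken as 95% bounds. How the spread behind them was set with 1 library per group is not stated. The files analysed hold no counts, so the depth behind each gene's value is not known from them, and no interval other than the deposited bounds was made. Strand and annotation are not given in the sources used here. From these values log2(FPKM + 1) was computed with Python 3.11.15, numpy 2.4.6 and pandas 2.3.3 (figures, matplotlib 3.10.9) for autosomal genes with FPKM of at least 1 in one library, joined on symbol and locus. Genes were counted as called at 2-fold, or where bounds did not overlap. No test was possible with 1 library per group. The counting was tested on simulated data.

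The genes and lists were chosen with earlier results of these data known. Named genes were the 12 largest changes in each direction with bounds apart, up to 4 2-fold members of each list (otherwise its 2 largest changes), 5 qPCR genes, genes at 0 in one library and at least 5 in the other, those next to the 2-fold limit and the 10 highest. Any other gene named was chosen after its values were seen. Alternatives were pseudocounts of 0.1 and 0.01, other filters and fold thresholds, rescaling, and leaving out groups of genes. Promoters are from RefSeq (GRCm38.p6, the same build as mm10), with an entry for 7651 genes (74.9%). Of 9535 genes matched to RefSeq by symbol, 99.6% overlapped the RefSeq locus. Coordinates count from 1. Some genes of the lists enter the counts and are not reported here by name.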

Additional observations from a re-analysis of the deposited data

Results flagged for a closer look

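The genes of the X and Y chromosomes took no part in the comparison, and 2 of those past the FPKM minimum were 2-fold higher in WI than in the sham control. Mid1ip1, on the X chromosome, encodes a regulator of acetyl-CoA carboxylase in fatty acid synthesis, and had an FPKM of 9.27 in sham (95% bounds 4.60 to 13.9) and 33.2 in WI (16.5 to 49.8), with bounds apart. Erdr1, listed on the Y chromosome, had 7.04 in sham (2.79 to 11.3) and 20.2 in WI (10.1 to 30.3), with overlapping bounds. Erdr1 was the only 1 of 41 listed Y genes past the minimum in either library. Of the X and Y genes, 3 were 2-fold lower in WI. Tlr7, a receptor for single-stranded RNA, was at 3.10 in sham (1.51 to 4.68) and 1.01 in WI (0.383 to 1.64), with overlapping bounds. Snora70 and Apoo-ps were listed at 0 in WI, and at 17.9 and 2.34 in sham with lower bounds of 0. With 1 library per group, no sample could be set against others of its group.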

How the results depend on the processing

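Of 79 genes 2-fold higher and 116 lower in WI, a pseudocount of 0.1 gave 126 and 220, and one of 0.01 gave 139 and 246. A threshold of 1.5-fold gave 333 and 445, and one of 4-fold gave 7 and 16. Rescaling to a common sum gave 95 and 178, among 11388 genes. It raised the values of both libraries while the pseudocount and the minimum stayed at 1, so it also acted as a smaller pseudocount and a looser filter. The other settings kept both counts within 1.5 times, among them rescaling by the median ratio (77 and 122) and, chosen after seeing the data, leaving out genes that share a locus (59 and 92) or have lower bounds of 0 in both libraries (69 and 111). The numbers with bounds apart ran from 15 to 24 higher and from 35 to 62 lower. Of 424 values of 106 named genes under alternatives, 0 changed sign and 37 moved by more than the SD that the bounds give, 31 of them under a smaller pseudocount, such as Serpina4-ps1 (-6.37 at 0.01) and Cdkn1a (-5.10 at 0.01). Of 413 list medians under alternatives, 35 moved by more than their standard error over members. With FPKM of at least 5 in one library, the median of the p53 targets went from -0.10 to -0.57 and that of the GADD45 family and CDK inhibitors from -0.31 to -0.96, and with no filter that of the immediate early genes from -0.29 to -0.09. Of 46 list medians, 8 changed sign under some setting. All 8 were within 0.1 of 0 except that of the mesothelial markers, which rests on Krt18. Rescaling moved the median of all genes by -0.04 (common sum) and -0.02 (median ratio). The precision is limited by bounds that reach about 52% of an FPKM to either side and by 1 library per group. No paired analysis was possible because each group has 1 library, and for the same reason no replicate could be left out.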
